A study of Drosophila melanogaster with 10 samples.

Results

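The genes *dpr13*, *dpr14*, *dpr15*, *dpr16*, *dpr17*, *dpr18*, *dpr19*, *dpr20* and *dpr21* were followed in developing T4 and T5 neurons, the direction-selective neurons of the fly motion pathway. They were chosen by symbol, as the 9 of the 17757 listed genes that carry these names, and their measured values played no part in the choice. All 9 passed the filter on low counts in both kinds of test described here. GFP-labelled T4/T5 neurons had been sorted from pupal *Drosophila* brains and profiled by droplet-based single-cell RNA-sequencing at 5 stages, namely 24, 36, 48, 60 and 72 h APF (after puparium formation), with 2 replicate libraries at each. Every library came from 1 genotype, in which *UAS-mCD8::GFP* was recombined with *SS00324-Gal4*, a split-Gal4 line that labels T4 and T5 neurons of all 4 subtypes, so that stages and subtypes differ by no allele or treatment. No treatment is described, and no library came from a mutant comparison group. The study counts the 2 libraries of a stage as biological replicates. T4 dendrites lie in the medulla and T5 dendrites in the lobula, and in both cell types subtypes a, b, c and d prefer 1 of 4 cardinal directions of motion each.

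Dpr (Defective proboscis extension response) proteins are cell-surface proteins with immunoglobulin domains. They bind to a second immunoglobulin family, the DIPs (Dpr-interacting proteins), mostly with 1 family on each of the cells that meet. Different Dprs bind different DIPs, and in the optic lobe many pairs of synaptic partner neurons express a Dpr on one side and its DIP on the other. The network of Dprs and DIPs has therefore been studied as a source of labels by which growing neurites match with partner cells and layers. Among the products of the 9 genes, Dpr15, Dpr16 and Dpr17 are known to bind DIP-gamma, and Dpr21 to bind DIP-beta.

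The 9 genes are spread over the genome and only *dpr15* and *dpr17* are close to each other. In the BDGP6.54 annotation *dpr17* lies on chromosome 3R from 12094876 to 12111420 on the plus strand, and *dpr15* on 3R from 12138833 to 12158595 on the minus strand, with a gap of 27.4 kb that holds 2 other genes. *dpr16* also lies on 3R, from 5150908 to 5170121 on the plus strand. *dpr14* (7903704 to 7908286, minus strand) and *dpr18* (16063738 to 16070304, plus strand) are on the X chromosome. *dpr19* is on 2L (10376168 to 10379905, plus strand), *dpr20* on 3L (852720 to 857248, minus strand), and *dpr13* (17975122 to 18007902, minus strand) and *dpr21* (3066499 to 3191011, plus strand) are on 2R. *dpr16* overlaps *CG12590* on its own strand, a gene that reached at most 0.676 CPM (UMIs per 1000000 UMIs) in any library.

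The deposited barcodes held 338727250 UMIs (unique molecular identifiers, each standing for 1 captured transcript), and between 12798989 and 62530395 per library. After filters on stress genes, mitochondrial genes and doublets, 48000 cells were assigned to the subtypes T4a to T5d, with 124 to 1586 cells per subtype and library. No *dpr* or *DIP* gene entered the clustering or the naming of subtypes. Levels are given in CPM, from the UMIs summed over the cells of a subtype in 1 library, in the order replicate 1, replicate 2. The defining T4/T5 gene *SoxN* stood at 1121 to 4103 CPM per library and the glial gene *repo* at no more than 0.603 CPM. *ple*, a gene of dopaminergic cells, reached 385 CPM in 1 library. At 48 h APF it stood at 1316 and 757 CPM in kept T4/T5 clusters of 1690 and 1652 cells, and at 3.24 to 75.5 CPM in the other kept clusters. *ple* was also among the 10 genes of highest fold in several clusters named T4c or T4d. The 2 libraries of a stage agreed unequally. Their log2 difference had an SD over 5339 genes of 0.180 (24 h) and 0.182 (60 h APF), but of 0.399 (36 h), 0.506 (48 h) and 0.656 (72 h APF). Of the 72245 distinct barcode sequences 625 occurred in more than 1 library. Because the libraries are 3′ tag counts, levels are compared for 1 gene between samples and not between genes.

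**Figure D1:**
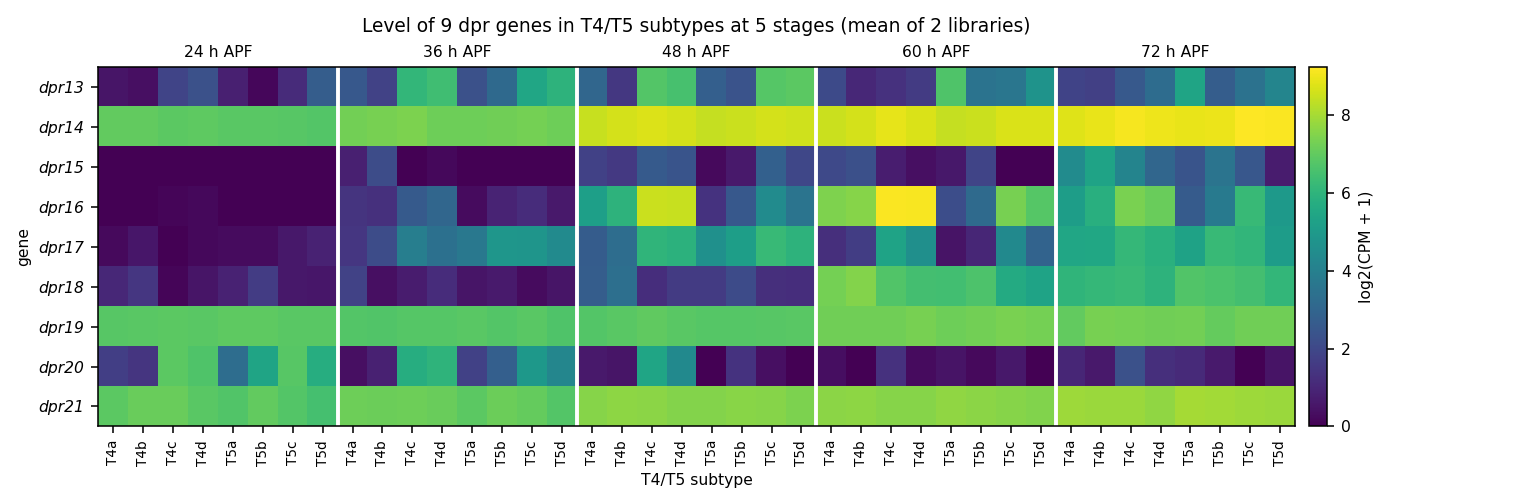
Mean level over the 2 libraries, as log2(CPM + 1), of the 9 genes (rows) in the subtypes T4a to T5d at 24, 36, 48, 60 and 72 h APF (columns, stages divided by white lines). *dpr14*, *dpr19* and *dpr21* are bright in every column, whereas the other 6 genes are bright in some subtypes or stages only.

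The 9 genes fell into 2 kinds. *dpr14*, *dpr19* and *dpr21* were found in every subtype at every stage, at a level that differed little between subtypes. The other 6 genes were low at some stages, and each differed between subtypes at some of the stages at which it was present, although at 72 h APF *dpr17* and *dpr18* were present without a called difference. In the comparison of T4 with T5 within a stage, 12 of the 45 combinations of gene and stage were called (edgeR quasi-likelihood test, adjusted p under 0.05 and at least 2-fold), beside 4.08% of all combinations over the 7185 genes tested. In 9 of the 12 the level was higher in T4 (2.72% over all genes) and in 3 lower (1.36%). In the comparison of T4/T5a,b with T4/T5c,d, 14 of 45 were called, beside 4.01% of all combinations, 3 of them higher in a,b (2.04%) and 11 lower (1.97%). Between a and b 4 of 45 were called (0.866% over all genes), and between c and d 1 of 45 (0.562%). With the library as a term in the model these counts were 15, 16, 6 and 2, beside 4.61%, 4.62%, 1.3% and 0.919% over all genes. The median difference of the 9 genes between a,b and c,d was -2.25 on the log2 scale at 48 h APF and within 0.05 of 0 at the other 4 stages, whereas the median of all genes stayed within 0.01 of 0.

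**Figure D2:**
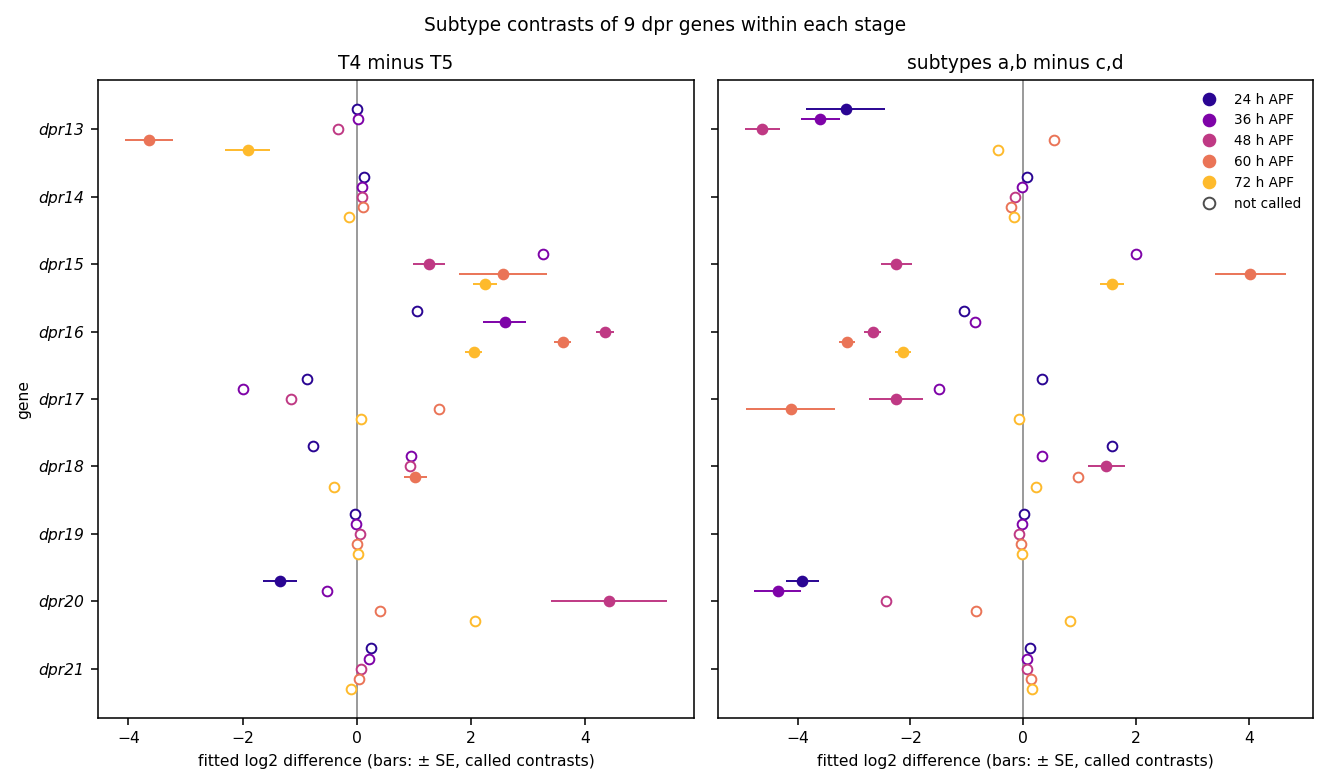
Fitted log2 difference between T4 and T5 subtypes (left) and between subtypes a,b and c,d (right) for each of the 9 genes at each stage (colours). Filled points are called contrasts, with bars of ± 1 SE; open points are not called, and points at which a gene had 0 UMIs are left out. *dpr16* lies to the right of 0 on the left and to the left of 0 on the right from 48 h APF on, and the points of *dpr14*, *dpr19* and *dpr21* stay near 0.

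Over all T4/T5 cells of a library, the level of every one of the 9 genes changed with the stage (edgeR, any difference among the 5 stages, largest adjusted p = 0.0023), in a data set in which 54.5% of the 8191 genes tested did so. Between adjacent stages 13 of 36 combinations of gene and step were called, beside 8.21% of all combinations, 11 of them rising (4.79%) and 2 falling (3.42%). From 24 to 72 h APF 7 genes rose (21.5% of all genes did) and 1 fell (20.8% did), whereas *dpr19* rose by less than 2-fold. edgeR's scaling placed the fitted changes 0.57 higher on the log2 scale than the same changes in CPM for the median gene from 24 to 72 h APF, and 0.05 to 0.22 higher for single steps, so both scales are named below.

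**Figure D3:**
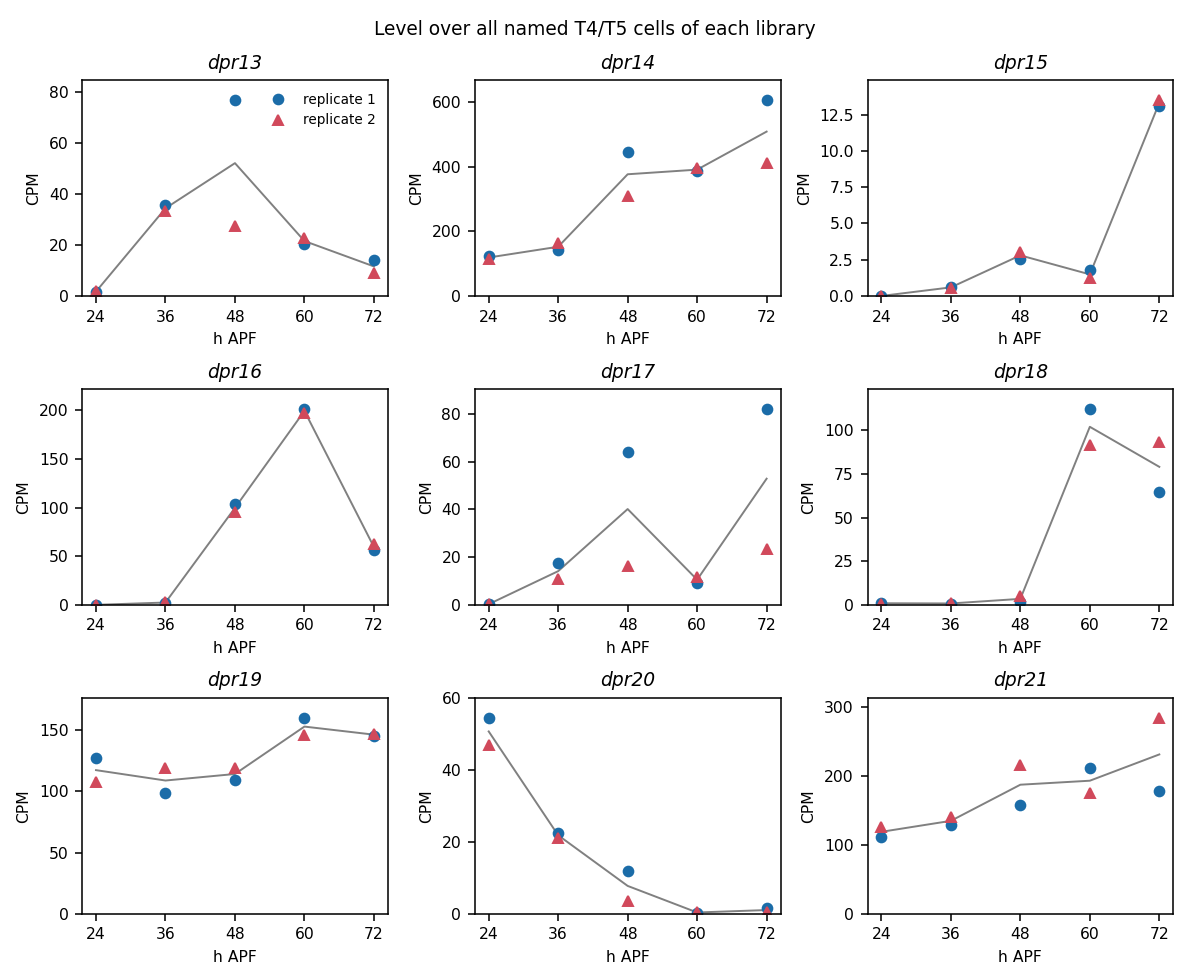
Level in CPM of each of the 9 genes over all named T4/T5 cells of a library, by stage in h APF. Circles are replicate 1, triangles replicate 2 and lines join the means of the 2 libraries. *dpr15*, *dpr16* and *dpr18* start near 0 and rise, *dpr20* falls to near 0, and the replicates lie far apart for *dpr13* at 48 h and for *dpr17* at 48 and 72 h APF.

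*dpr14*, *dpr19* and *dpr21* were the genes that all subtypes shared. *dpr14* stood at 124 and 114 CPM in the 2 libraries at 24 h, 142 and 163 (36 h), 445 and 309 (48 h), 386 and 397 (60 h), and 608 and 411 at 72 h APF. Both libraries from 48 h on were above all those of 24 and 36 h. The step from 36 to 48 h was called (log2 change 1.53 ± 0.28 SE, edgeR adjusted p = 0.0069), but not without replicate 1 of 36 h (1.47, adjusted p = 0.053). From 24 to 72 h the fitted change was 2.70 ± 0.29 (adjusted p = 8.4e-05), and the pooled CPM was 3.99-fold higher. *dpr21* rose from 112 and 126 CPM at 24 h over 129 and 140.4, 158 and 216, and 211 and 175 to 178 and 284 CPM at 72 h APF, a pooled ratio of 2.09 (fitted log2 change 1.51 ± 0.23, adjusted p = 0.00062). No single step of *dpr21* was called. *dpr19* was the steadiest of the 3 in CPM, between 98.8 and 160.1 CPM in all 10 libraries, with a pooled ratio of 1.29 between 72 and 24 h APF (fitted log2 change 0.90 ± 0.16, adjusted p = 0.0014).

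Among subtypes of 1 stage these 3 genes varied little. At 60 h APF *dpr14* ranged from 333 CPM in T5a to 460.15 in T4c in replicate 1 and from 343 in T5a to 477 in T4c in replicate 2, so that T5a was lowest and T4c highest in both libraries. The corresponding range of *dpr19* was 149.6 to 169 CPM in replicate 1 and 134.6 to 160.5 in replicate 2, and that of *dpr21* was 193 to 228 and 163 to 184 CPM. Over the comparisons of T4 with T5, a,b with c,d, a with b and c with d, the fitted differences lay between -0.22 and 0.14 on the log2 scale for *dpr14*, -0.07 and 0.07 for *dpr19*, and -0.23 and 0.25 for *dpr21*. The smallest adjusted p among them was 0.60, and none of the 140 pairs of subtypes was called for any of the 3 genes, with or without the library in the model. Small differences recurred all the same: *dpr21* was higher in a,b than in c,d in 10 of 10 libraries, and higher in c than in d in 10 of 10.

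*dpr13* was highest in c,d subtypes at 36 and 48 h APF and in T5a later. Clusters of T4c and T4d cells were not alike at 36 and 48 h. *dpr13* was among the 10 genes of highest fold in most (36 h) or some (48 h) parts of 1 divided cluster. In the parts of the other divided cluster with T4c and T4d cells it never was. The difference was not tested. At 24 h APF *dpr13* was low, at 1.70 and 1.75 CPM over all T4/T5 cells, and at 36 h it had risen to 35.5 and 33.3 CPM (log2 change 4.35 ± 0.52, adjusted p = 0.0020). At 36 h it was found in T4/T5c,d, at 71.1 and 66.0 CPM in T4c, 90.3 and 77.5 in T4d, 38.3 and 48.2 in T5c, and 73.0 and 51.1 in T5d. The a,b subtypes stood between 0.968 and 9.25 CPM, below every c,d value. At 48 h the c,d subtypes held 141 to 166 CPM in replicate 1 and 43.2 to 68.5 in replicate 2, and the a,b subtypes 1.64 to 8.60 CPM, again with no overlap. *dpr13* was thus lower in a,b than in c,d at 24 h (log2 difference -3.15 ± 0.70, adjusted p = 0.0011), 36 h (-3.59 ± 0.35, adjusted p = 1.6e-11) and 48 h APF (-4.62 ± 0.32, adjusted p = 1.9e-16). The first of these rests on few UMIs and was not called without replicate 2 of 24 h (-2.69, adjusted p = 0.83).

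At 60 h APF the pattern of *dpr13* was another one. T5a held 100.02 and 102 CPM, whereas T5d held 19.1 and 32.6, T5c 11.9 and 10.5, T5b 10.0 and 11.1, and the 4 T4 subtypes 0.535 to 4.81 CPM. Of the T5a cells 42.1% and 36.3% had at least 1 UMI. The pairs T5a against T5b (log2 difference 3.28 ± 0.57, adjusted p = 0.00018), T5c (3.21 ± 0.59, adjusted p = 0.00012) and T5d (2.01 ± 0.55, adjusted p = 0.021) were called, as were all 4 pairs of T5a with a T4 subtype. T4 was lower than T5 (-3.64 ± 0.42, adjusted p = 1.6e-09), and a higher than b (2.51 ± 0.64, adjusted p = 0.022). The latter call was lost without either library of 60 h (2.02, adjusted p = 1.0, and 2.72, adjusted p = 0.25). At 72 h T5a was still highest, at 48.4 and 34.3 CPM, T5d stood at 21.4 and 13.1, and T4 was lower than T5 (-1.91 ± 0.39, adjusted p = 0.00020). The difference between a,b and c,d itself changed from 24 to 72 h APF (interaction 2.70 ± 0.81, adjusted p = 0.035, beside 2.88% of all genes called), a call lost when any one of 7 libraries was left out (2.23 to 3.06, adjusted p = 0.052 to 0.98). With the library in the model a was also higher than b at 48 h (1.23, adjusted p = 0.0089) and 72 h (1.43, adjusted p = 0.034).

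Cells that had been set aside for low T4/T5 markers held more *dpr13* than any T4/T5 subtype, at 370 CPM over 3334 cells. At 48 h these cells held 1383 CPM in the replicate 1 library and 586 in replicate 2, and the c,d subtypes 159 and 54.4 CPM, so that replicate 1 was the higher library in both. The part of these cells in the levels of *dpr13* in T4/T5 neurons was not tested.

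*dpr20* was the only one of the 9 genes that was highest at the first stage. It stood at 54.6 and 47.0 CPM over all T4/T5 cells at 24 h, 22.5 and 21.2 (36 h), 11.9 and 3.66 (48 h), 0.135 and 0.606 (60 h), and 1.66 and 0.435 CPM at 72 h APF. No library of 48 h or later reached those of 36 h, nor these those of 24 h. The step from 48 to 60 h was called (log2 change -4.31 ± 0.87, adjusted p = 0.010), with a 19.5-fold lower pooled CPM, but not without replicate 1 of 60 h (-3.47, adjusted p = 0.098), with the subtypes weighted equally by limma (-1.23, adjusted p = 0.064) or in T5 cells alone (-0.67, adjusted p = 0.74). From 24 to 72 h APF *dpr20* fell by 5.26 ± 0.77 on the log2 scale (adjusted p = 0.00054).

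The subtypes that held *dpr20* became fewer with time. At 24 h APF it stood at 136 and 104 CPM in T4c, 110.3 and 94.6 in T4d, 132 and 94.6 in T5c, and 49.9 and 54.4 in T5d, but also at 34.3 and 47.4 in T5b and 10.0 and 7.51 in T5a. T4a and T4b held 1.61 to 2.33 CPM. At 36 h T4c and T4d held 49.3 to 64.8 CPM, T5c and T5d 16.3 to 32.1, T5b 4.66 and 7.24, and T4a and T4b 0 to 1.57. The T4c and T4d cells of 36 h came from mixed clusters that were divided again, and these clusters differed. In 1 of them every part named T4c or T4d had *dpr20* among its 10 genes of highest fold. In the other few parts did, so the subtype levels are averages over unlike cells. The difference was not tested. At 48 h T4c stood at 64.4 and 19.5 CPM and T4d at 29.98 and 9.32, whereas no T5 subtype passed 2.50 CPM and T5a and T5d had 0 UMIs in both libraries. At 60 and 72 h *dpr20* was at most 2.14 CPM in every subtype and library but for 7.74 CPM in T4c of replicate 1 at 72 h.

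*dpr20* was accordingly lower in a,b than in c,d at 24 h (log2 difference -3.91 ± 0.29, adjusted p = 3.3e-14) and 36 h APF (-4.35 ± 0.41, adjusted p = 4.0e-11), and higher in T4 than in T5 at 48 h (4.41 ± 1.02, adjusted p = 0.0017). The last call was lost without replicate 1 of 48 h (3.97). At 48 h a,b against c,d was not called, although the mean CPM was 24.1- and 26.3-fold lower in a,b (18 UMIs against 393). Within T4 it was 65.8- and 53.6-fold lower in a,b. In T5 the few UMIs lay the other way, 11 in a,b and 2 in c,d, and the test weighs subtypes equally on the log scale. The difference between a,b and c,d was larger in T4 than in T5 at 24 h (difference of differences -3.76 ± 0.58, adjusted p = 7.6e-05, beside 0.732% of all combinations of gene and stage called, lost without either library of 24 h with adjusted p = 0.078 and 0.25), as T5a and T5b held more *dpr20* than T4a and T4b. For the same reason the fitted T4 level at 24 h was below that of T5 (-1.35 ± 0.29, adjusted p = 0.0023), although the mean CPM of the 4 subtypes was 62.5 and 50.7 in T4 and 56.6 and 51.0 in T5: the test weighs subtypes equally on the log scale, on which T4a and T4b lie far down. That call was lost without either library of 24 h (adjusted p = 0.17 and 0.56). Between 24 and 72 h the difference between a,b and c,d changed by 4.74 ± 1.22 (adjusted p = 0.010, but 1.0 and 0.17 without replicate 1 or replicate 2 of 72 h), and with the library in the model that between T4 and T5 did too (3.26, adjusted p = 0.0016).

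*dpr16* differed between T4 and T5 at 4 of the 5 stages, more than any other of the 9 genes, and was always higher in T4. It was at 3 UMIs in all T4/T5 cells of 24 h (0 and 0.0708 CPM), at 2.38 and 2.46 CPM (36 h), 104 and 95.7 (48 h), 202 and 197 (60 h), and 56.0 and 63.0 at 72 h APF. Replicates lay far closer to each other than to any other stage. All 4 steps were called, with log2 changes of 5.47 ± 0.41 (adjusted p = 0.00021), 5.59 ± 0.28 (7.8e-06), 1.15 ± 0.22 (0.0080) and -1.59 ± 0.22 (0.0031). In pooled CPM the first step was a 48.3-fold rise with a counting interval of 15.9 to 239, and the last a 3.27-fold fall. The third step was not called without either library of 60 h (adjusted p = 0.064 and 0.075).

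At 60 h APF the subtypes could be read as 3 tiers of *dpr16*. T4c held 575 and 580.2 CPM and T4d 578 and 547. T4a (173 and 169.6), T4b (193 and 184), T5c (155 and 168) and T5d (110.4 and 110.2) formed a middle tier, and T5a (3.79 and 3.20) and T5b (8.54 and 7.60) a low one. These ranges did not overlap. Of the 28 pairs of subtypes 20 were called, and the other 8 were the pairs T4c with T4d and T5a with T5b and those among T4a, T4b, T5c and T5d. Examples are T4c against T5c (log2 difference 1.86 ± 0.26, adjusted p = 1.9e-06), T4a against T5a (5.61 ± 0.34, adjusted p = 2.3e-15) and T4c against T5a (7.32 ± 0.36, adjusted p = 4.6e-19). At 48 h the order was similar, with 322 to 375 CPM in T4c and T4d, 32.2 to 63.3 in T4a and T4b, 9.79 to 23.3 in T5c and T5d, and 1.12 to 5.01 in T5a and T5b, again without overlap between these 4 pairs of subtypes. At 72 h T4c and T4d held 137 to 168 CPM and T5a and T5b 3.86 to 13.7, with the other 4 subtypes at 23.8 to 76.9 in between.

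T4 was higher than T5 in *dpr16* at 36 h (log2 difference 2.59 ± 0.38, adjusted p = 4.0e-06), 48 h (4.34 ± 0.16, adjusted p = 1.4e-23), 60 h (3.6 ± 0.15, adjusted p = 6.9e-22) and 72 h APF (2.04 ± 0.15, adjusted p = 1.6e-14). The 36 h call was lost without replicate 2 of that stage (1.12, adjusted p = 1.0). The a,b subtypes were lower than c,d at 48 h (-2.67 ± 0.16, adjusted p = 2.2e-17), 60 h (-3.12 ± 0.15, adjusted p = 3.2e-20) and 72 h (-2.13 ± 0.15, adjusted p = 8.0e-15). At 60 h this difference was smaller in T4 than in T5 (difference of differences 2.97 ± 0.29, adjusted p = 2.3e-09). Subtype a was lower than b at 48 h (-1.21 ± 0.25, adjusted p = 0.0020) and 72 h (-1.05 ± 0.22, adjusted p = 0.0033). Leaving out either library of 48 h ended the first of these 2 calls (-1.26, adjusted p = 0.11, and -1.15, adjusted p = 0.37), and leaving out replicate 2 of 72 h (-0.77, adjusted p = 0.67) or fitting 72 h alone (-1.01, adjusted p = 0.14) ended the second. The gene *cno*, which overlaps *dpr16* on the other strand, stood at 9.09 to 49.7 CPM per library.

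**Figure D4:**
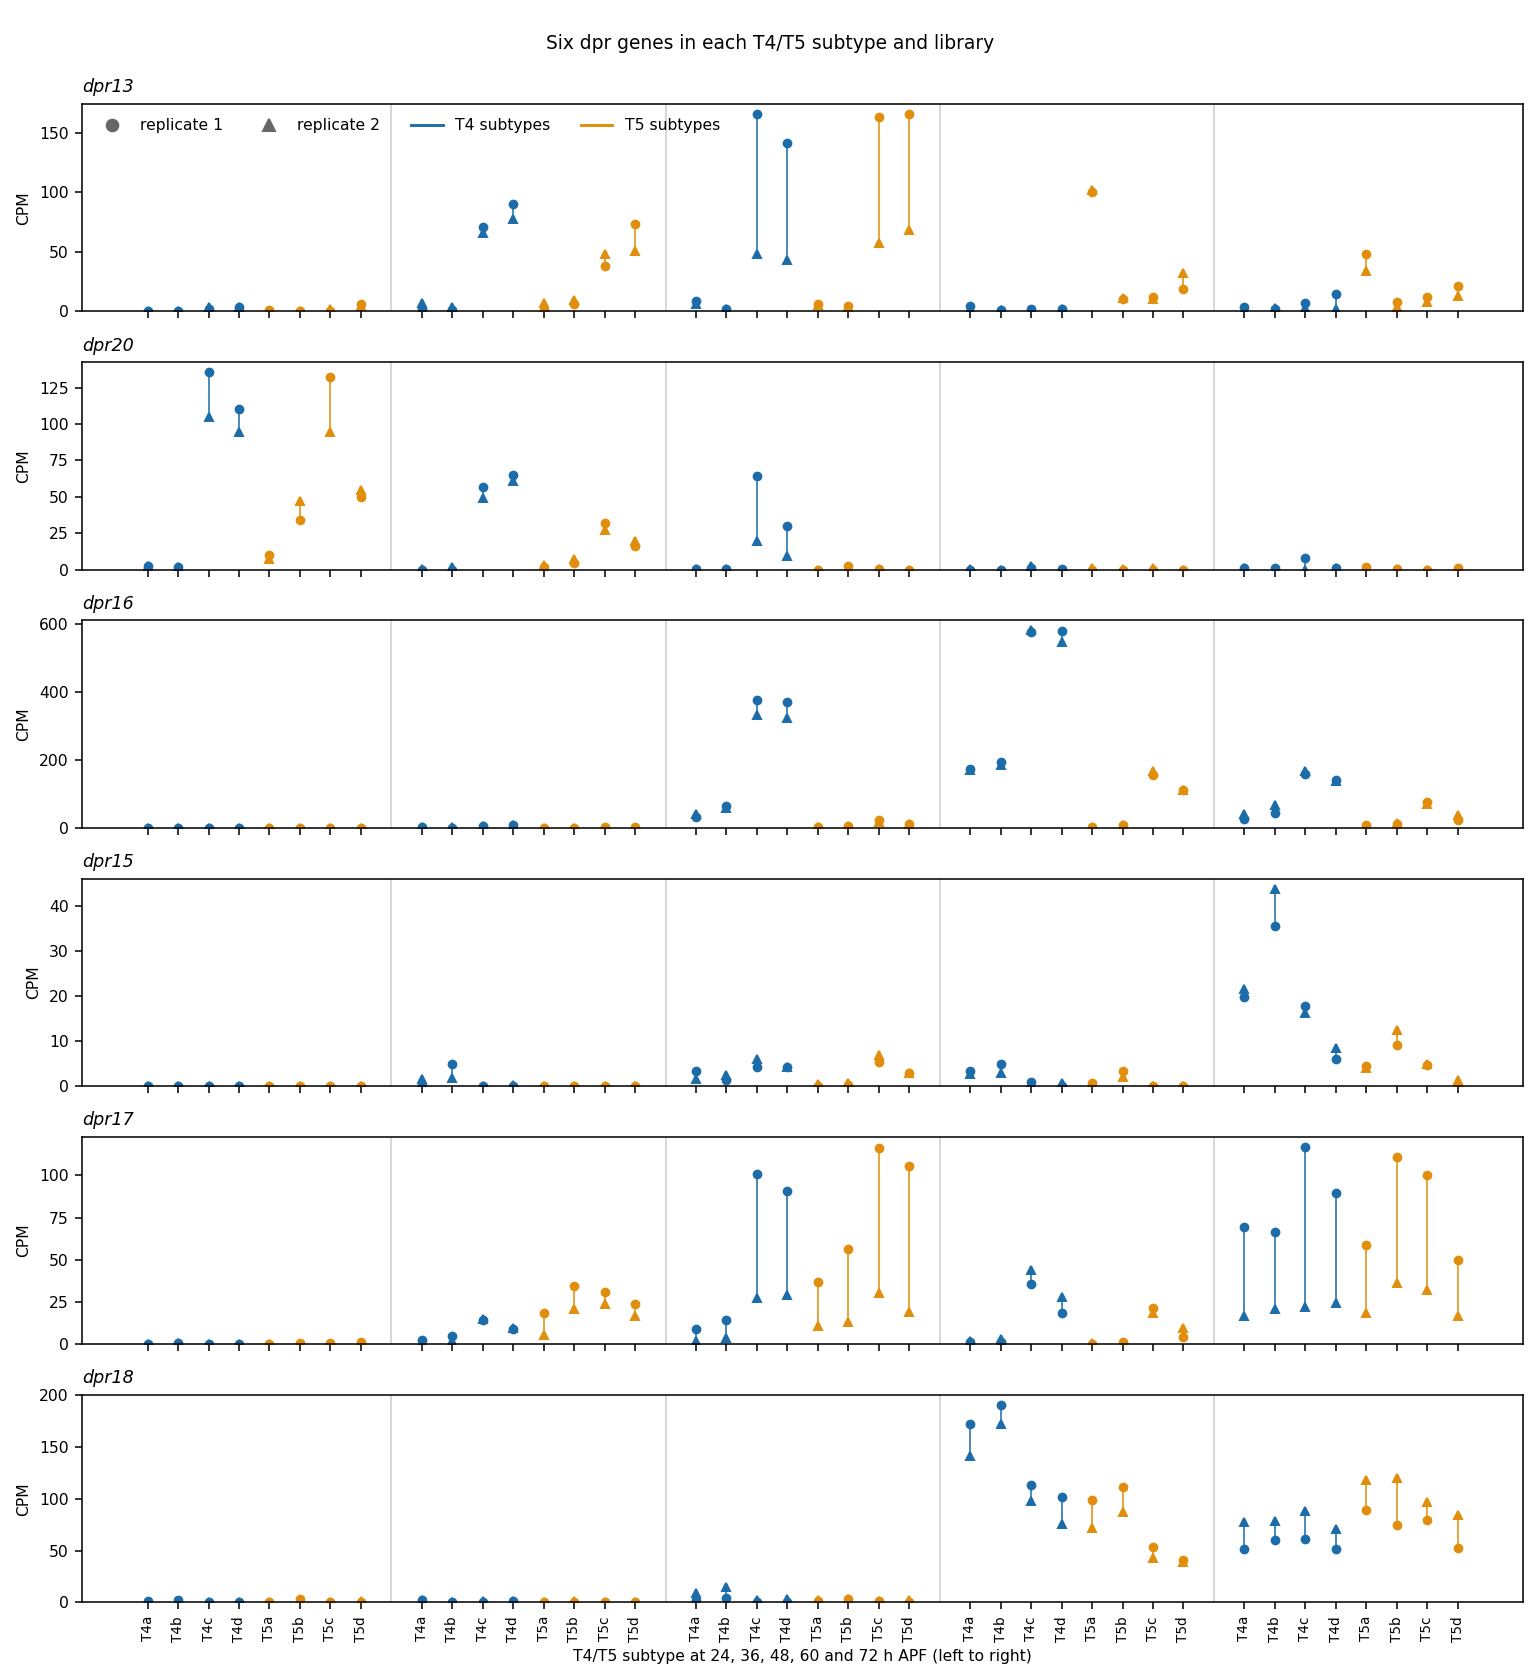
Level in CPM (y axis, a scale of its own for each gene) of *dpr13*, *dpr20*, *dpr16*, *dpr15*, *dpr17* and *dpr18* in each T4 (blue) and T5 (orange) subtype at 24, 36, 48, 60 and 72 h APF (left to right). Circles are replicate 1 and triangles replicate 2, joined by a line. *dpr16* peaks in T4c and T4d at 60 h APF, *dpr13* is high in c,d subtypes at 36 and 48 h and in T5a at 60 h, and the replicates of *dpr17* lie far apart at 48 and 72 h.

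*dpr15*, which like *dpr16* encodes a partner of DIP-gamma, was the gene with the fewest UMIs, 856 in all named cells, and was highest at 72 h. It had 0 UMIs in both libraries at 24 h APF, which allows up to 0.176 and 0.0708 CPM. It then stood at 0.625 and 0.557 CPM (36 h), 2.58 and 3.02 (48 h), 1.76 and 1.21 (60 h), and 13.1 and 13.5 CPM at 72 h. Against a floor of 3 UMIs over the 24 h libraries, the pooled level was at least 11.4-fold higher at 36 h and at least 265-fold higher at 72 h. The steps from 36 to 48 h (log2 change 2.49 ± 0.31, adjusted p = 0.0017) and from 60 to 72 h (3.30 ± 0.26, adjusted p = 0.00038) were called. The step from 24 to 36 h was called too (adjusted p = 0.0021), but its 17 UMIs all lay in T4 subtypes, and it was not called in T5 cells alone (adjusted p = 1.0) or with the subtypes weighted equally by limma (log2 change 0.42, adjusted p = 0.35).

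The subtypes with most *dpr15* changed between 48 and 60 h APF. At 48 h the c,d subtypes held 2.89 to 6.87 CPM and the a,b subtypes 0 to 3.37, with T4a of replicate 1 inside the c,d range, and a,b were lower than c,d (log2 difference -2.25 ± 0.27, adjusted p = 1.4e-07). At 60 h T4a, T4b and T5b held 2.07 to 4.79 CPM and the other 5 subtypes 0 to 0.802, and a,b were higher than c,d (4.03 ± 0.63, adjusted p = 1.8e-05), although not without replicate 1 of 60 h (3.52, adjusted p = 0.076). Only 59 UMIs of *dpr15* lie behind the values of that stage. At 72 h T4b was highest, at 35.5 and 43.8 CPM, followed by T4a (19.8 and 21.6), T4c (17.8 and 16.3), T5b (9.09 and 12.4) and T4d (6.05 and 8.40). T5a and T5c held 4.07 to 4.83 CPM and T5d 0 and 1.29.

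At 72 h APF T4b exceeded T4c (log2 difference 1.28 ± 0.34, adjusted p = 0.028) and T5b (1.83 ± 0.34, adjusted p = 0.00042), but its difference from T4a was not called. *dpr15* was higher in T4 than in T5 at 48 h (1.26 ± 0.28, adjusted p = 0.0018), 60 h (2.56 ± 0.77, adjusted p = 0.034) and 72 h (2.24 ± 0.22, adjusted p = 1.25e-09). The call at 48 h was lost without replicate 1 of that stage (0.98, adjusted p = 0.10), and that at 60 h with DESeq2 (1.91, adjusted p = 0.052), without a filter on low counts (2.54, adjusted p = 0.066) and without either library (2.82, adjusted p = 0.19, and 1.86, adjusted p = 1.0). At 72 h a,b exceeded c,d (1.57 ± 0.22, adjusted p = 3.0e-06), b exceeded a (-1.17 ± 0.26 for a minus b, adjusted p = 0.011) and c exceeded d (1.73 ± 0.36, adjusted p = 0.0075). The last 2 were not called without either library of 72 h (adjusted p = 0.16 to 1.0 for a and b, 0.26 and 0.59 for c and d).

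*dpr17*, the third among the 9 genes that encodes a known partner of DIP-gamma and the neighbour of *dpr15*, had replicates that disagreed at some stages. It stood at 0.293 and 0.283 CPM over all T4/T5 cells at 24 h, 17.4 and 10.9 (36 h), 64.2 and 16.1 (48 h), 9.29 and 11.8 (60 h), and 82.2 and 23.6 at 72 h APF. Replicate 1 was thus several times higher than replicate 2 at 48 and 72 h, the stages with the widest spread over all genes, and close to it at 24 and 60 h. The first step was called (log2 change 5.62 ± 1.02, adjusted p = 0.018) but not without any one of the 4 libraries of 24 and 36 h (5.22 to 5.96, adjusted p = 0.050 to 0.20), and no later step was.

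Within 1 library the order of subtypes could be read nevertheless. At 48 h APF T4c, T4d, T5c and T5d held 90.8 to 116 CPM in replicate 1, above 8.98 to 56.3 in the a,b subtypes, and 19.1 to 30.1 in replicate 2, above 1.78 to 13.1. At 60 h T4c held 35.7 and 43.9 CPM, T4d 18.3 and 28.02, T5c 21.4 and 18.5, and T5d 4.01 and 9.32, whereas the a,b subtypes held 0 to 3.33. The a,b subtypes were lower than c,d at 48 h (log2 difference -2.25 ± 0.48, adjusted p = 0.00044) and at 60 h (-4.12 ± 0.79, adjusted p = 0.00012). At 72 h all 8 subtypes held 49.95 to 117 CPM in replicate 1 and 16.5 to 36.2 in replicate 2, and no subtype contrast was called. With the library in the model, T4 was also lower than T5 at 36 h (-1.88, adjusted p = 8.0e-11) and 48 h (-1.09, adjusted p = 4.7e-15) and higher at 60 h (1.42, adjusted p = 0.0014), a,b lower than c,d at 36 h (-1.54, adjusted p = 2.0e-08) and c higher than d at 60 h (1.23, adjusted p = 5.2e-06).

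*dpr18* was low up to 48 h APF and present in every subtype from 60 h on. It was at 1.35 and 0.520 CPM at 24 h, 0.375 and 1.25 (36 h), and 1.85 and 5.05 (48 h), and then at 112 and 91.7 CPM (60 h) and 64.8 and 93.3 at 72 h APF. The step from 48 to 60 h was called (log2 change 5.003 ± 0.56, adjusted p = 0.00057), with a 26.4-fold higher pooled CPM and no overlap between the libraries on either side of it. The smaller step from 36 to 48 h was near the threshold (2.13 ± 0.61, adjusted p = 0.048), and lost its call with the replicate number as a block (adjusted p = 0.052) and when any one of 7 libraries was left out (1.17 to 3.40, adjusted p = 0.056 to 0.25).

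At 60 h APF *dpr18* was graded. T4b held 191 and 172 CPM, T4a 172 and 142, T4c 114 and 98.0, T5b 112 and 87.7, T4d 102 and 75.3, T5a 99.1 and 72.0, T5c 53.5 and 43.2, and T5d 40.9 and 39.0. This order was the same in both libraries, but only 5 of the 28 pairs were called, all of them between a T4 subtype and T5c or T5d, as in T4b against T5d (log2 difference 2.21 ± 0.41, adjusted p = 0.00011). T4 was higher than T5 by a little over 2-fold (1.02 ± 0.20, adjusted p = 9.6e-05). At 48 h, at a low level, the a,b subtypes exceeded c,d (1.47 ± 0.33, adjusted p = 0.00075), and *dpr18* was higher in a,b than in c,d in 10 of 10 libraries. With the library in the model this was called at 24 h too (1.52, adjusted p = 0.011). At 72 h the 8 subtypes held 51.1 to 119.6 CPM, and no contrast was called.

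Over all 28 pairs of subtypes at 5 stages, 240 combinations of gene and pair were called, beside 3.06% of all combinations. They belonged to 6 genes: 75 to *dpr16*, 57 to *dpr13*, 45 to *dpr15*, 40 to *dpr20*, 13 to *dpr18* and 10 to *dpr17*. Over all genes tested, 22.2% were called in at least 1 pair. With the library as a term 345 were called (4.48% over all genes), 239 of them shared, and the numbers rose most for *dpr17*, to 53, and for *dpr18*, to 26. When the shares of cells with a UMI also had to differ by 50 percentage points, 20 combinations remained, beside 0.256% of all combinations, and all of them were of *dpr16* at 48 or 60 h APF. Over all genes tested, 2.25% met this limit in at least 1 pair.

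**Figure D5:**
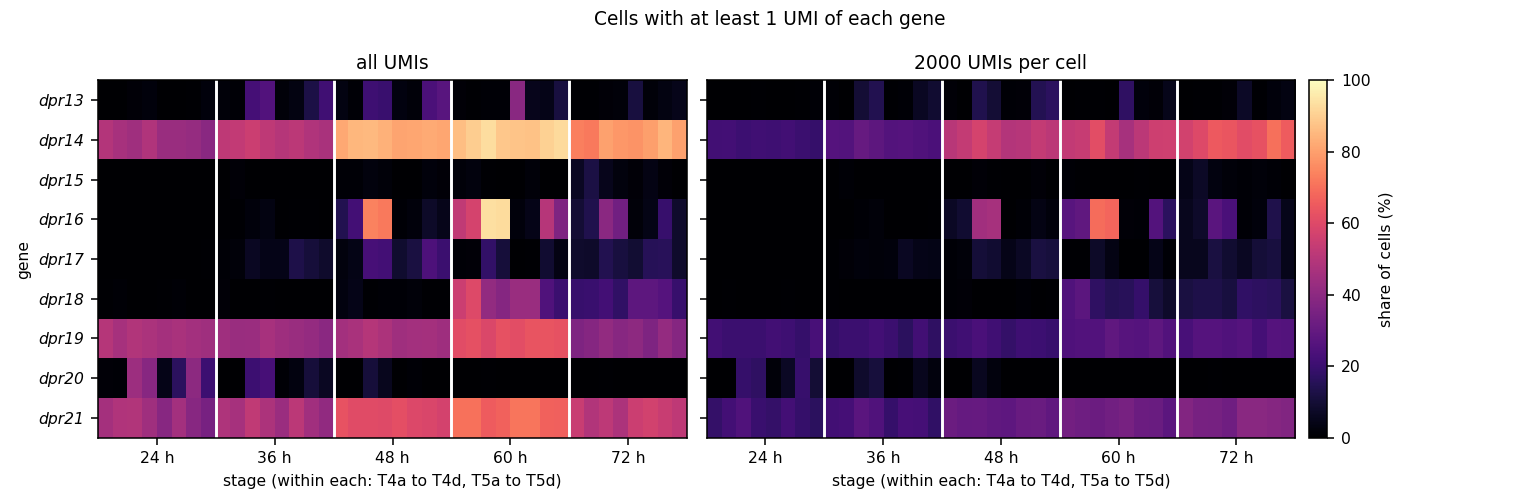
Mean share of cells with at least 1 UMI (colour, in percent) of each of the 9 genes in the subtypes T4a to T5d at 5 stages, with all UMIs (left) and after thinning every cell to 2000 UMIs (right). The share of *dpr16* in T4c and T4d at 60 h APF is the highest among the 6 patterned genes in both panels.

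In single cells the same picture was seen as a share of cells with a UMI. *dpr16* was found in 95.9% and 91.5% of T4c cells at 60 h APF and in 2.46% and 1.60% of T5a cells of the same libraries, where T5a cells were the deeper ones (median 7829 and 5725.5 UMIs, against 7296.5 and 5212.5). After thinning to 2000 UMIs the T4c shares were 68.2% and 70.4%. Glia-like cells of the sort served as a comparison outside the named T4/T5 cells. At 60 h 0 of 65 of them had a UMI of *dpr16*, which allows a share of up to 4.62%, at a median of 755 UMIs only. At 72 h the share in 90 glia-like cells was 13.3% (68.6 CPM, median 1661.5 UMIs), and as means of the 2 libraries the shares in T5a (1.69%), T5b (3.95%), T5d (8.31%) and T4a (10.0%) did not pass it, whereas T4c (39.6%) and T4d (33.4%) did, in T4/T5 cells with medians of 2774 to 4161 UMIs. The glia-like cluster of 72 h held *SoxN* at 1145 CPM, against 1640 to 2061 CPM in the kept clusters of that stage. It was therefore no background free of T4/T5 markers. Whether the UMIs of the glia-like cells were their own or free RNA was not tested.

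As means of the 2 libraries, *dpr14* was found in 39.3% to 93.0% of the cells of a subtype and stage, *dpr19* in 36.7% to 63.6% and *dpr21* in 34.8% to 71.4%. The shares in glia-like cells, which held *SoxN* as well, were highest at 72 h APF. There they were 35.6% for *dpr14* (311 CPM), against at least 72.2% in each T4/T5 subtype, 16.7% for *dpr19*, against at least 36.7%, and 23.3% for *dpr21* (142 CPM), against at least 47.9%. At the other 4 stages they were 2.01% to 13.1% for *dpr14*, 0 to 15.3% for *dpr19* and 2.01% to 10.8% for *dpr21*. Each subtype had between 3 and 7 of the 9 genes in at least 10% of its cells. T4a and T4b at 24 and 36 h APF and T5a at 24, 36 and 48 h had *dpr14*, *dpr19* and *dpr21* alone, and T4c at 48 h had all but *dpr15* and *dpr18*. After thinning every cell to 2000 UMIs the range was 3 to 6 genes. T5c at 36 h then fell from 6 to 3. T5b at 24 h, T5b and T5d at 36 h, and T4a, T4b and T5b at 48 h fell to 3 as well. These counts thus depend on depth. The share of all genes that pass the 10% limit was not counted.

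The T4/T5 neurons also expressed DIP genes, among them those for known partners of these Dprs. *DIP-beta* stood at 0.293 and 0.0708 CPM at 24 h, 5.50 and 3.43 (36 h), 14.2 and 9.57 (48 h), 79.6 and 73.0 (60 h), and 149 and 163 CPM at 72 h APF. At 72 h it held 329 and 337 CPM on average in the c,d subtypes and 14.2 and 12.4 in a,b (log2 difference -5.83, adjusted p = 4.5e-21), and it was lower in a,b at 4 stages and higher in T4 than in T5 at 3. Its partner *dpr21* was found in all 8 subtypes, at a level that did not differ by a called amount between subtypes. *DIP-gamma* was at most 0.902 CPM in every library up to 60 h and at 17.2 and 15.7 CPM at 72 h APF. At that stage T4a held 52.5 and 50.2 CPM of it, T4b 49.3 and 65.2, T4c and T4d 5.62 to 7.40, and no T5 subtype more than 4.50. *DIP-gamma* at 72 h was therefore highest in T4a and T4b, the same subtypes as *dpr15*, whereas *dpr16* was highest in T4c and T4d. *dpr17* was found in all 8 subtypes at that stage, without a called difference. *DIP-epsilon* did not pass 1.38 CPM and *DIP-zeta* 0.237 CPM in any library.

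Of the 11 DIP genes 8 could be tested, and they gave 5 higher and 7 lower calls in T4 against T5 over 40 combinations (beside 2.72% and 1.36% over all genes), and 8 higher and 6 lower in a,b against c,d (beside 2.04% and 1.97%). *DIP-theta* was higher in a,b at 48, 60 and 72 h (smallest log2 difference 5.28) and lower in T4 at the same stages, *DIP-delta* was lower in T4 than in T5 at 24, 36 and 48 h (largest difference -3.03), and *DIP-eta* was lower in a,b at 24 and 48 h but higher at 72 h APF. Of the 12 genes *dpr1* to *dpr12*, 6 were called in T4 against T5, 16 times of 60 and always higher in T4 (2.72% over all genes). In a,b against c,d they gave 10 higher and 11 lower calls of 60 (2.04% and 1.97%). *dpr2* and *dpr3* were higher in T4 at all 5 stages, by 4.29 to 5.73 and 4.44 to 5.86 on the log2 scale. *dpr5* was higher in a,b at all 5 stages (up to 5.68), *dpr6* lower in a,b at 4 (down to -5.06), and *dpr11* higher in a,b at 24 and 36 h and lower at 60 h.

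Over the 40 means of stage and subtype, the genes whose log2(CPM + 5) was most like that of a *dpr* gene were compared among the 7185 genes tested, as a description in which the points share libraries. *dpr16* was most like *CG42748* (Pearson r = 0.93), *CG8673* (0.92) and *Ady43A* (0.90), and *dpr18* most like *inaF-D* (0.98), *CG34357* (0.98) and *Tob* (0.98). *dpr13* was most like *fipi* (0.85), followed by *nAChRalpha7* (0.68) and *CG15312* (0.66). *dpr20* was most like *CG1146* (0.84), *CG6767* (0.83) and *CG44006* (0.81), *dpr15* most like *CG5973* (0.87), *CG7582* (0.83) and *CG32486* (0.83), and *dpr17* most like *CG7028* (0.87), *clu* (0.85) and *CG8910* (0.85). For the 3 shared genes the correlations were high with many genes: *dpr14* led with *trv*, *Nrx-1* and *MagR* (all 0.98), *dpr19* with *CG33203*, *CG43219* and *inaF-D* (all 0.92), and *dpr21* with *gol*, *capu* and *Vha14-1* (all 0.95). Of these 27 neighbours 20 stayed among the first 3 with a pseudocount of 1, but only 9 did so in the replicate 1 libraries alone and 9 in the replicate 2 libraries alone. Some fell far. In the replicate 2 libraries alone *CG7028* and *clu* ranked 3201 and 1010 for *dpr17*, and *CG5973* 357 for *dpr15*. For *dpr21*, *gol* and *capu* ranked 428 and 529 in the replicate 1 libraries and 718 and 663 in the replicate 2 libraries. *fipi* stayed first for *dpr13* in both. Among the 9 genes themselves, *dpr14* and *dpr21* (r = 0.94) and *dpr18* and *dpr19* (r = 0.90) were most alike, and *dpr14* and *dpr20* least (r = -0.64).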

How the data were processed

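The authors made the deposited matrices with Cell Ranger 3 from 3′ libraries, and their values are counts, 1 for each UMI of a gene in a barcode, without normalization. Barcodes with more than 10% mitochondrial or 10% heat-shock UMIs were left out, and doublets were taken as the highest Scrublet scores (scanpy 1.11.5) at 0.8% per 1000 barcodes, which removed 4676 of the 62584 barcodes passing. The cells of each stage were integrated by canonical correlation (Seurat 5.3.0, 2000 variable genes without *dpr* or *DIP* genes, 15 components, resolution 0.8). Clusters were named T4 or T5 by *TfAP-2* alone, a transcription factor gene, and a to d by membrane genes that mark the subtypes. Clusters that mixed subtypes were clustered again. This gave all T4c and T4d cells of 36 and 48 h and all T4c cells of 60 h APF. Names are thus rebuilt and may differ from the study's. Counts were summed per subtype and library, or per library for stages, and tested with edgeR 4.0.16 (quasi-likelihood, R 4.3.3), on 7185 and 8191 genes, with Benjamini-Hochberg adjustment. A call needs an adjusted p under 0.05 and a change of at least 2-fold. The 8 subtypes of a library are not separate samples, but the main fit of subtypes took the 80 sums of subtype and library as such. Its p-values therefore do not measure the spread between the 2 libraries of a stage alone. Stages were tested on 1 sum per library, with 2 libraries per stage. Subtypes of 1 library deviated together (r of 0.351 to 0.911 within stages), so a fit with the library as a block was made. Replicate numbers did not deviate in 1 common way across stages (median r of 0.022 over 10 pairs). The range of r was wide, from -0.654 to 0.828, so some pairs of stages did share much of their replicate difference. The source of this was not tested. Counting intervals and floors cover counting error only. All 9 genes were named whatever their values, other *dpr* and *DIP* genes where called at 3 or more stages (up to 5 per list) or where they are known partners, and the 3 genes most like each. *DIP-gamma* and 3 further partners were named in any case. These genes and lists were chosen with earlier results of these data known. DESeq2 1.42.0, limma 3.58.1, no filter on low counts, other subtype names, doublets kept, each stage alone and leaving out each library were alternatives. The tests were also run on simulated data with known changes, in which sums were drawn without a library effect. That setting cannot speak to subtypes of 1 library that deviate together, and no conclusion is drawn from it.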

Additional observations from a re-analysis of the deposited data

Results flagged for a closer look

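In 5 instances a difference between subtypes itself differed between T4 and T5 or between stages (edgeR interaction terms). For *dpr20* the difference between a,b and c,d changed by 4.74 from 24 to 72 h APF on the log2 scale (adjusted p = 0.010), and at 24 h it was larger in T4 than in T5, by -3.76 (adjusted p = 7.6e-05). Each of these 2 calls was lost in 2 alternatives. For *dpr13* the change from 24 to 72 h was 2.70 (adjusted p = 0.035), a call lost in 7 alternatives. For *dpr15* at 48 h the difference between a,b and c,d was 2.22 higher in T4 than in T5 (adjusted p = 0.049), a call lost in 12 alternatives. For *dpr16* at 60 h it was 2.97 higher in T4 (adjusted p = 2.3e-09), and this call was kept in every alternative.

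The 3334 cells set aside for low levels of T4/T5 markers, which no comparison used, held UMIs of all 9 genes. Their pooled level was 370 CPM for *dpr13*, 148 for *dpr14*, 6.63 for *dpr15*, 21.9 for *dpr16*, 55.9 for *dpr17*, 36.1 for *dpr18*, 169 for *dpr19*, 50.5 for *dpr20* and 206 for *dpr21*. At least 1 UMI of *dpr13* was found in 54.2% of these cells.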

How the results depend on the processing

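Of 57 called results for single genes, 30 kept direction and call under every alternative, and of 965 values under alternatives 893 did. None turned in direction. Leaving out each library in turn gave 11 to 14 calls for T4 against T5, 13 to 15 for a,b against c,d, 2 to 4 for a against b, 0 to 1 for c against d, 187 to 248 for pairs and 10 to 16 for adjacent stages. The call of c against d became 2 with the library as a block, 2 without a filter on low counts and 2 with each stage fitted alone, and the 13 calls between adjacent stages became 20 without the filter. Of the 27 most similar genes 9 were kept without replicate 2 and 9 without replicate 1. With the block, of the 57 only the call of *dpr18* from 36 to 48 h was lost, and the calls of subtype groups that it added within stages are given beside the genes. Fitted alone, 48 h did not give the a,b against c,d calls of *dpr17* (adjusted p = 0.059) and *dpr18* (0.11), nor 72 h the a against b call of *dpr16* (0.14). The T4 against T5 call of *dpr15* at 60 h was lost with DESeq2 (0.052) and without the filter (0.066), and its rise from 24 to 36 h in T5 cells alone (1.0) and with subtypes weighted equally (0.35). The T4 against T5 difference of *dpr18* at 60 h fell under 2-fold with doublets kept (log2 0.99) or with *dpr* and *DIP* genes in the clustering (0.996). The rise of *dpr13* from 24 to 72 h was not called in T4 cells alone (1.74, adjusted p = 0.070), nor were the rises of *dpr17* from 24 to 36 h (adjusted p = 0.054) and *dpr18* from 36 to 48 h (0.076) there. In T5 cells alone the fall of *dpr20* from 48 to 60 h was not called (-0.67, adjusted p = 0.74), also not with subtypes weighted equally (-1.23, adjusted p = 0.064), and that of *dpr16* from 60 to 72 h was under 2-fold (-0.89). The causes were not tested. With 2 libraries per stage, wide replicate gaps at 48 and 72 h limit *dpr17* and *dpr13*, and few UMIs limit *dpr15*.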
